A study of Mus musculus with 24 samples.

Results

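The 7 genes described here are Sox17, Foxa2, Gata4, Gata6, Eomes, T and Pax6, developmental transcription factors that are largely silent in embryonic stem cells. They were chosen by name out of 49997 genes of the RefSeq annotation, and their data are the peak regions that overlap a fixed mm10 window around each gene. The windows reach 3.59 to 5.19 kb past the annotated gene on each side and cover 226.007 kb together. Within them lay 252 regions of the 6 deposited peak lists, which hold between 137102 and 462153 regions each. "Bivalent" is the working name of the set. No histone mark and no RNA was measured in the files used here, so the name could not be checked against these data.

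The series applied chromatin immunoprecipitation followed by sequencing (ChIP-seq). The groups used here are E14 cells, an established mouse embryonic stem cell line kept in medium with serum and LIF. All groups carry the genotype labelled Nelfb deg, in which NELFB has an HA tag and can be degraded with dTAG-13. The 3 groups used here are control cells, not treated with dTAG-13, immunoprecipitated for NELFB through its HA tag (NELFB:HA, 2 libraries), for NELFE (2 libraries) or for SPT5 with an antibody labelled anti-DSIF (2 libraries). The other 18 of the 24 samples, including those given 500 nM dTAG-13 for 30 min and those labelled naïve or EpiLC, were not analysed here. The labels name 1 cell line and no separate cultures for the replicates, so every p-value below measures the spread between these libraries alone, which may be technical.

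NELF, which contains NELFB and NELFE, and DSIF, which contains SPT5, join RNA polymerase II early in transcription and hold it paused close to the start of genes. SPT5 also travels with the polymerase into the gene, while NELF leaves on release from the pause. Bivalent genes carry both H3K4me3, a mark of active starts, and H3K27me3, a mark laid down by the Polycomb complex PRC2. In embryonic stem cells this state is known above all at CpG-rich starts of developmental regulators. Sox17, Foxa2, Gata4 and Gata6 are transcription factors of endoderm, Eomes and T (Brachyury) are T-box factors of the primitive streak and mesoderm, and Pax6 is a paired-box factor of eye and neural ectoderm.

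The bases just before the annotated starts show how these genes differ in CpG content, the feature that bivalent starts are known for. Each run holds the 250 bases before a start, 5′ to 3′ on the gene's strand, from RefSeq on GRCm38.p6, the same build as mm10, with each CpG in capitals. The table used holds 7 start entries for 4 of the 7 genes: 3 for Foxa2, 2 for Pax6 and 1 each for Eomes and T. The outermost start of each gene is shown, and for Foxa2 also the one that lay under a region in all 6 lists.
Foxa2, inner start: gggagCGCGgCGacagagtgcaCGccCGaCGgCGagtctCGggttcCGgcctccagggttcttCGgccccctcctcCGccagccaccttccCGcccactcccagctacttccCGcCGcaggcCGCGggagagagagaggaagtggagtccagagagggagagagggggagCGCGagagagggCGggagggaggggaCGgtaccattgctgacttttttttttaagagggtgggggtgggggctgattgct
Foxa2, outermost start: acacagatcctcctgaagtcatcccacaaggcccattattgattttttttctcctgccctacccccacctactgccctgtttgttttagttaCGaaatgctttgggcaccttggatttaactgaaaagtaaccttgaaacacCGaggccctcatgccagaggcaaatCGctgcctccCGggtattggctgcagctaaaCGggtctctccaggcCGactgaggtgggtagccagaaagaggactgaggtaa
Eomes: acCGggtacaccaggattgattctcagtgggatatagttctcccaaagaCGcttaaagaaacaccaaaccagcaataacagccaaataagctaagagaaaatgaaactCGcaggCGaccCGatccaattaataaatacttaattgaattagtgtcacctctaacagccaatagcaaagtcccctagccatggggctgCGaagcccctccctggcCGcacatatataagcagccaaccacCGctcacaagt
T: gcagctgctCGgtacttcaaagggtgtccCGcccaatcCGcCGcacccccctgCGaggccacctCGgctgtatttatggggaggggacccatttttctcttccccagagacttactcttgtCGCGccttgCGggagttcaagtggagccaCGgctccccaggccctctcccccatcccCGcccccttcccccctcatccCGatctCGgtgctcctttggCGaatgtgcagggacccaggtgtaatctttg
Pax6: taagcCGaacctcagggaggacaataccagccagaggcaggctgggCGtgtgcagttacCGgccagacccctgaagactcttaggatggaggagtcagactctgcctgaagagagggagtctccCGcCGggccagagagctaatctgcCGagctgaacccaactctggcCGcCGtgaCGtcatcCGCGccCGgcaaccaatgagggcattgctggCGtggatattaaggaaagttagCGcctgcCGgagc
The Foxa2 runs are chr2:148045949-148046198 and chr2:148046970-148047219 on the minus strand. The Eomes run is chr9:118477939-118478188, the T run chr17:8434173-8434422 and the Pax6 run chr2:105668646-105668895, all on the plus strand.

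The inner Foxa2 run held 20 CpGs, the Pax6 run 15 and the T run 14, above the median of 10 over 21263 promoters cut in the same way. The Eomes run held 8 and the outermost Foxa2 run 6, below that median. GC content was 67.2% at the inner Foxa2 start, 62.8% at T, 60.8% at Pax6, 50.8% at the outermost Foxa2 start and 46.4% at Eomes, beside a median of 55.6%. The letters CCAAT, on either strand, occurred in the runs of T, Pax6, Eomes and the outermost Foxa2 start and in 35.4% of all promoters. GGGCGG occurred at T and at the inner Foxa2 start and in 42.6% of all promoters. TATAAA occurred in none of the 5 runs and in 11.6% of all promoters. Of the 2 starts not printed, the remaining Foxa2 start (148045464) had 13 CpGs, GGGCGG and TATAAA before it, and the second Pax6 start had 15 CpGs and none of the 3 motifs.

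Each deposited region has a pileup (its mean ChIP coverage, scaled to the smaller of ChIP and input), a fold enrichment over the input and a q-value. All were computed by the authors within that library. Folds, pileups and ranks are therefore given beside each other but describe each list on its own. Most regions in these lists are weak. A region was called strong here at a deposited q-value of 0.01 or less, that is a −log10 q of at least 2, which kept between 6978 and 11770 regions per list. After filtering the libraries held 41312333 and 29656999 tags (NELFB:HA), 40260648 and 28944909 (NELFE), and 27324697 and 62312558 (SPT5). Tags were 100 and 101 bp long for SPT5 and 50 bp long in the other 4 libraries. The input had the same tag count for both SPT5 libraries and a different one for each of the other 4. The samples name only 1 control input, so which inputs were used is not known from the labels. Antibody and sequencing batch cannot be told apart in any comparison with SPT5.

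NELFE had a strong region in both libraries in the windows of 4 of the 7 genes, Sox17, Foxa2, Gata4 and Gata6. NELFB:HA had one in both libraries at Sox17 alone, and SPT5 had none in either library. Read from 1 library, the NELFB:HA count was 3 in the first (Sox17, Foxa2, Gata4) and 1 in the second (Sox17). The NELFE count was 4 in the first (Sox17, Foxa2, Gata4, Gata6) and 5 in the second, which added Eomes. For counts from 1 library, the share of all gene windows is not given here. Among all 21887 protein-coding genes, extended by 4 kb on each side, 40.6% had a strong region in both NELFB:HA libraries, 47.5% in both NELFE libraries and 35.1% in both SPT5 libraries. The NELFE share of the 7 genes, 57.1%, was near that background, while their NELFB:HA share of 14.3% and their SPT5 share of 0 lay below it. The median length of the 7 windows was 18 kb and that of all gene windows 25.2 kb, and no test was made on genes chosen by name.

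**Figure D1:**
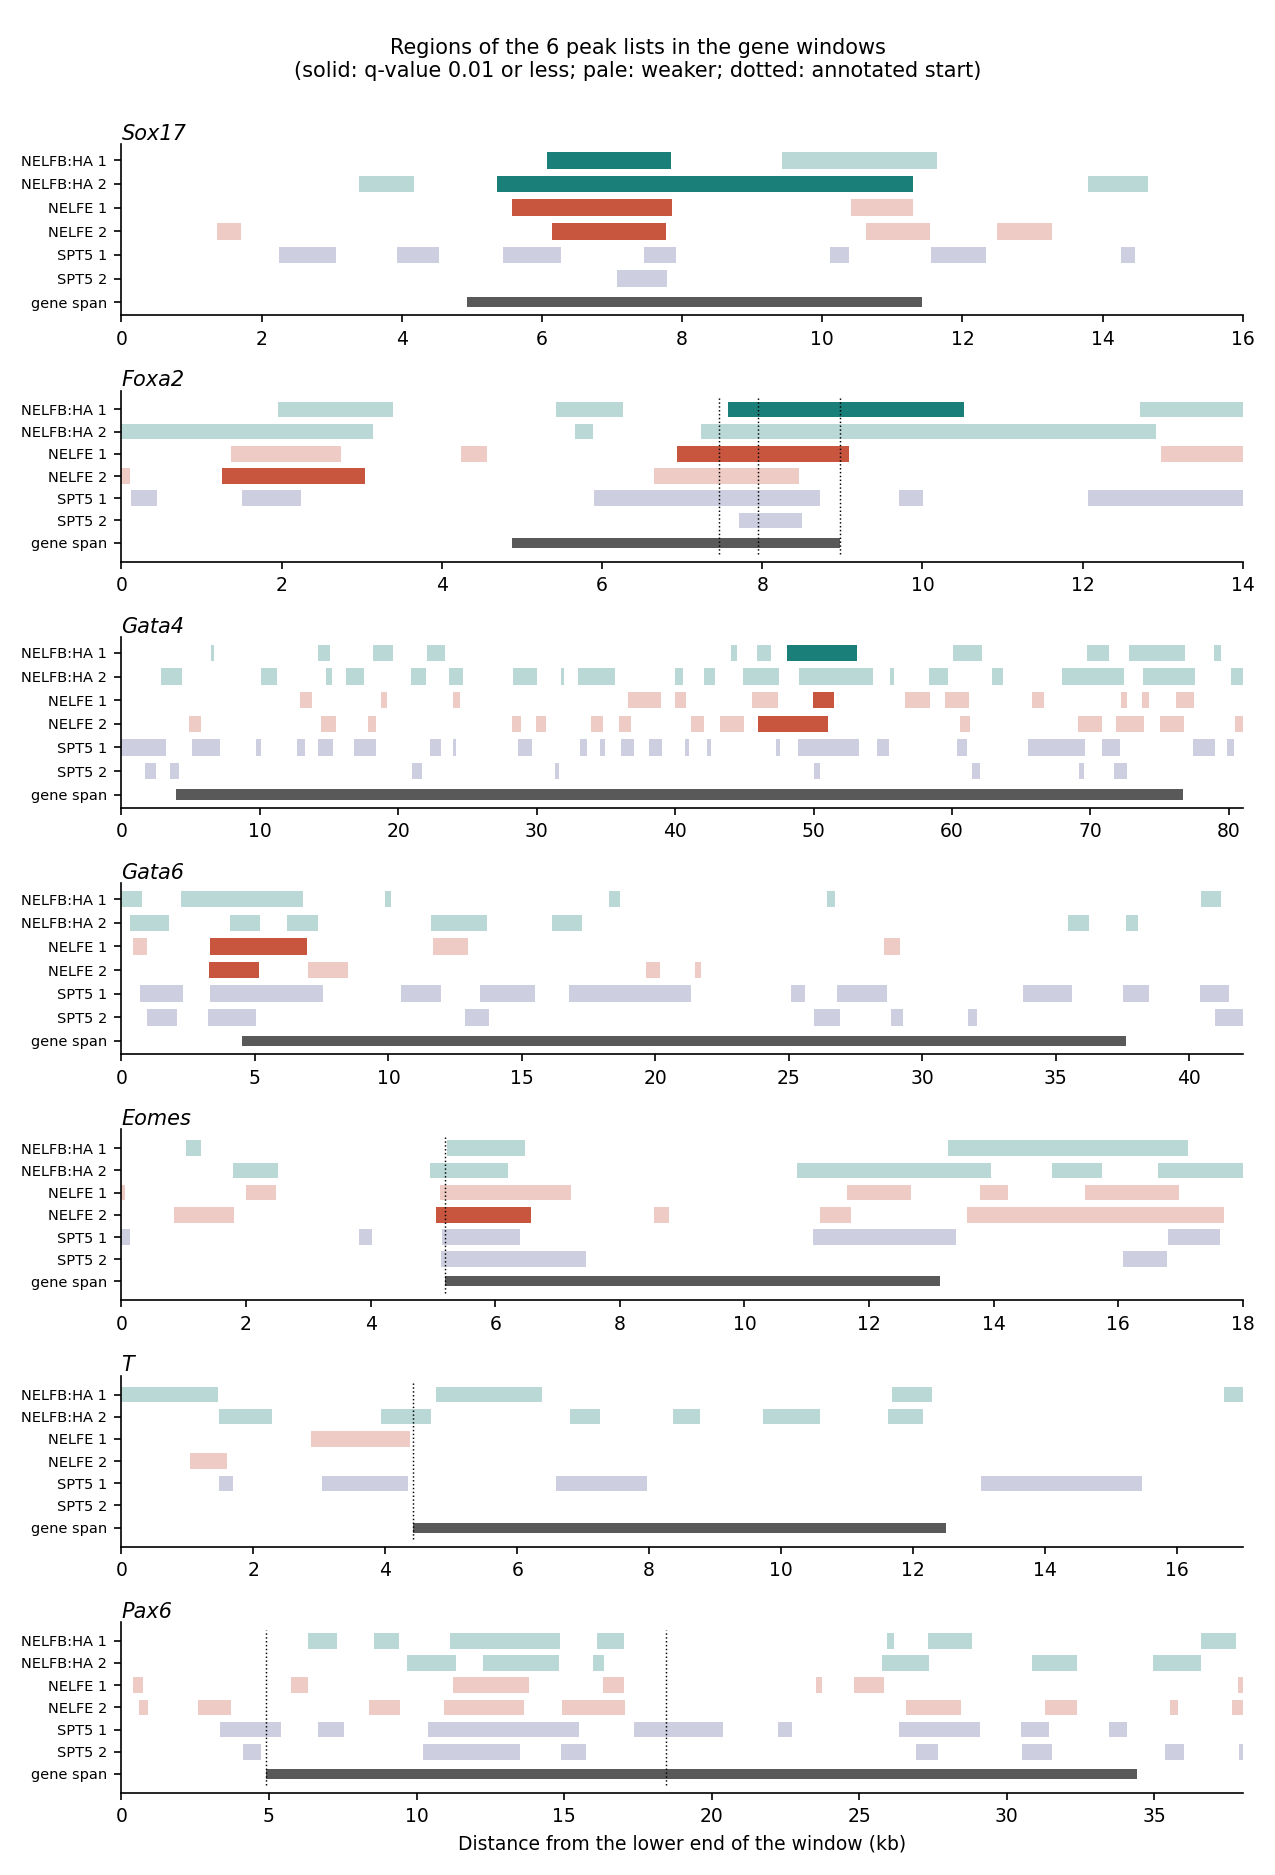
Regions of the 6 peak lists across each gene window, with distance from the window's lower end in kb on the horizontal axis and 1 row per library. Solid bars are strong regions (q-value 0.01 or less), pale bars weaker regions, the dark bar the annotated gene and dotted lines annotated starts (entries for Foxa2, Eomes, T and Pax6). The 13 solid bars lie in 5 of the 7 windows and none lies in an SPT5 row.

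Of the 252 regions, 13 were strong: 4 of 86 for NELFB:HA, 9 of 78 for NELFE and 0 of 88 for SPT5. Over the whole lists, strong regions made up 2.97% and 1.85% (NELFB:HA), 5.52% and 5.42% (NELFE), and 1.51% and 6.08% (SPT5). Of the 239 weak regions, 199 had a fold under 2. The strong regions were 1520 to 5930 bp long (median 2147 bp) and the weak ones had a median of 903 bp. Of the 13 strong regions, 12 lay inside, covered or reached into one of the 7 genes. Their folds ran from 2.42 to 4.24, and all 13 lay under the median fold of the strong regions of their own list, at percentiles of 2.49 to 44.9. By pileup 12 of 13 lay under that median, and by length 5 of 13, so the strong regions of these genes were weak among strong regions but not short.

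Sox17, a SOX-family factor of definitive endoderm (chr1:4490928-4497426), was the gene whose strong regions were found in every NELF library. The NELFB:HA regions lay at chr1:4492075-4493838 (1764 bp) and chr1:4491364-4497293 (5930 bp). The NELFE regions lay at chr1:4491567-4493861 (2295 bp) and chr1:4492148-4493767 (1620 bp). All 4 overlapped and lay inside the annotated gene, and the 5930 bp region of the second NELFB:HA library spanned most of it. NELFB:HA gave folds of 3.80 and 2.75 here and NELFE gave 4.24 and 2.90. The regions ranked 4828 and 8854 by pileup in the NELFB:HA lists and 6678 and 6398 in the NELFE lists, with −log10 q of 10.35, 3.39, 11.37 and 4.98. In the first library of either NELF subunit the Sox17 region had the highest fold and −log10 q of the 7 windows. SPT5 had weak regions at the same place, at chr1:4493459-4493915 (457 bp, fold 2.61, rank 9613, −log10 q 1.44) and chr1:4493066-4493777 (712 bp, fold 1.73, rank 20309, −log10 q 0.157). The SPT5 libraries thus had short, weak regions that overlapped the strong region of both NELFE libraries.

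Foxa2, a forkhead factor of endoderm and floor plate (chr2:148042877-148046969, minus strand), had a strong region over its start in 1 library of each NELF subunit. These were chr2:148045577-148048519 in the first NELFB:HA library (2943 bp, fold 2.92, rank 10708, −log10 q 3.22) and chr2:148044940-148047086 in the first NELFE library (2147 bp, fold 3.44, rank 8943, −log10 q 4.94). The second libraries had weaker regions at the same place. For NELFB:HA it was chr2:148045233-148050915 (5683 bp, fold 2.09, rank 31900, −log10 q 0.707) and for NELFE chr2:148044655-148046455 (1801 bp, fold 2.53, rank 10134, −log10 q 1.86), the latter just short of the threshold. The first SPT5 library had its highest pileup just before the outermost start (chr2:148047702-148048007, 306 bp, fold 1.99, rank 47365). Over the inner starts SPT5 had weak regions, chr2:148043900-148046725 with a fold of 1.72 and chr2:148045708-148046502 with a fold of 2.01 (795 bp, rank 22816). The regions of the 4 NELF libraries and these 2 SPT5 regions all cover the inner start whose bases are printed above.

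The strong region that placed Foxa2 among the genes found in both NELFE libraries was a different one in the second library. It lay at chr2:148039257-148041045 (1789 bp, fold 3.03, rank 12339, −log10 q 2.38), 1.832 kb outside Foxa2 and over the higher-coordinate end of a neighbouring long noncoding RNA, 9030622O22Rik, whose strand is not in the gene table used. The first NELFE library had a region there just short of the threshold (chr2:148039362-148040738, fold 2.54, −log10 q 1.96). NELFB:HA had weak regions there with folds of 2.33 and 1.92, and the first SPT5 library one with a fold of 1.60. So the Foxa2 window held 2 sites, and neither passed the threshold in both NELFE libraries. Counting strong regions that overlap each other in both NELFE libraries leaves 3 genes, Sox17, Gata4 and Gata6, with no share of all genes counted in this way given here.

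Gata4, a zinc-finger factor of endoderm and heart (chr14:63198914-63271712), had strong regions inside the gene in 3 libraries. They were chr14:63243112-63248164 in the first NELFB:HA library (5053 bp, fold 2.42, rank 9021) and, for NELFE, chr14:63244961-63246493 (1533 bp, fold 3.42, rank 7399) and chr14:63240962-63246033 (5072 bp, fold 2.93, rank 12243). Their −log10 q values were 3.72, 7.06 and 3.36. The second NELFB:HA library had a region of 5337 bp at this site with a −log10 q of 1.30 and a fold of 2.13. The SPT5 libraries had regions of 4366 and 435 bp there with folds of 1.96 and 2.18. All 6 lists therefore had a region at this site, and 3 of them passed the threshold. A separate site in the gene, further up in coordinates, held the region of highest pileup in the window in 3 libraries: chr14:63255058-63257188 for NELFB:HA 1 (fold 2.05, rank 8934), chr14:63255555-63256265 for NELFE 2 (fold 2.52, rank 11953) and chr14:63255390-63256093 for SPT5 1 (fold 2.18, rank 8561). None of these passed the q-value threshold.

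Gata6, the GATA factor of primitive endoderm (chr18:11052510-11085636), had strong regions for NELFE alone. They lay across the lower end of the gene at chr18:11051324-11054967 (3644 bp, fold 2.54, rank 11001, −log10 q 2.62) and chr18:11051287-11053169 (1883 bp, fold 3.49, rank 9375, −log10 q 4.51). The noncoding RNA Gata6os overlaps this end of Gata6 by 58 bp, so reads there cannot be assigned to one of the pair. NELFB:HA had weak regions at the same place, chr18:11050218-11054789 (4572 bp, fold 2.15, rank 19197) and chr18:11052079-11053194 (1116 bp, fold 2.32, rank 18612). SPT5 had chr18:11051335-11055534 (4200 bp, fold 2.01, rank 14979) and chr18:11051237-11053027 (1791 bp, fold 2.03, rank 12155). All 6 lists thus put their region of highest pileup in the Gata6 window at 1 site, with −log10 q of 1.31 and 0.818 (NELFB:HA) and of 0.515 and 0.786 (SPT5).

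Eomes, a T-box factor of the primitive streak and endoderm (chr9:118478186-118486132), had 1 strong region, at the threshold itself. It was chr9:118478052-118479571 in the second NELFE library (1520 bp, fold 2.64, rank 10599, −log10 q 2.01). The first NELFE library had chr9:118478115-118480217 (2103 bp, fold 2.30, rank 11750, −log10 q 1.33). The NELFB:HA libraries had chr9:118478229-118479469 (1241 bp, fold 2.38, rank 14057) and chr9:118477956-118479205 (1250 bp, fold 1.72, rank 9061). SPT5 had regions over the same start of 1243 and 2335 bp with folds of 1.65 and 1.55, but its regions of highest pileup lay elsewhere in the window (chr9:118476814-118477020, fold 1.81, rank 8989, and chr9:118489079-118489782, fold 1.58, rank 12452). The Eomes start was thus marked by, or within 40 bp of, a region in each of the 6 lists. The noncoding gene Gm33408 overlaps Eomes by 547 bp and covers this start.

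T, the T-box factor that specifies mesoderm (chr17:8434423-8442496), had no strong region in any library. Its regions of highest pileup were chr17:8434763-8436382 and chr17:8433934-8434693 for NELFB:HA (folds 1.58 and 1.65, ranks 104087 and 39428) and chr17:8432871-8434367 and chr17:8431036-8431592 for NELFE (folds 2.06 and 1.68, ranks 19085 and 203452). SPT5 had chr17:8431476-8431695 in the first library (fold 2.12, rank 25615) and no region in the window in the second. The −log10 q of every region in the T window was 0.453 or less. Just before or over the start, 3 libraries had overlapping weak regions: NELFB:HA 2, NELFE 1 and SPT5 1 (fold 1.72, chr17:8433037-8434350). A second annotated gene, LOC115486424, covers this start.

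Pax6 (chr2:105668896-105698410) had no strong region either, and its weak regions lay mostly inside the gene. The regions of highest pileup were chr2:105680131-105681014 and chr2:105673686-105675344 for NELFB:HA (folds 1.82 and 1.87, ranks 13227 and 13897) and chr2:105675219-105677825 and chr2:105664606-105664909 for NELFE (folds 2.02 and 2.88, ranks 18912 and 15661). For SPT5 they were chr2:105674387-105679510 and chr2:105674203-105677500 (folds 1.93 and 1.68, ranks 24242 and 21859). The second NELFE region was 304 bp long, lay outside the gene and had the highest −log10 q of the window, 1.52. Inside the gene, all 6 lists had a region overlapping chr2:105675219-105677825, between the first and second annotated starts, with folds of 1.68 to 2.14. At the first start itself, both SPT5 libraries had a weak region that covered or came within 176 bp of it (chr2:105667341-105669418, fold 1.60, and chr2:105668135-105668720, fold 1.49). The noncoding RNA Pax6os1 also covers this start.

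**Figure D2:**
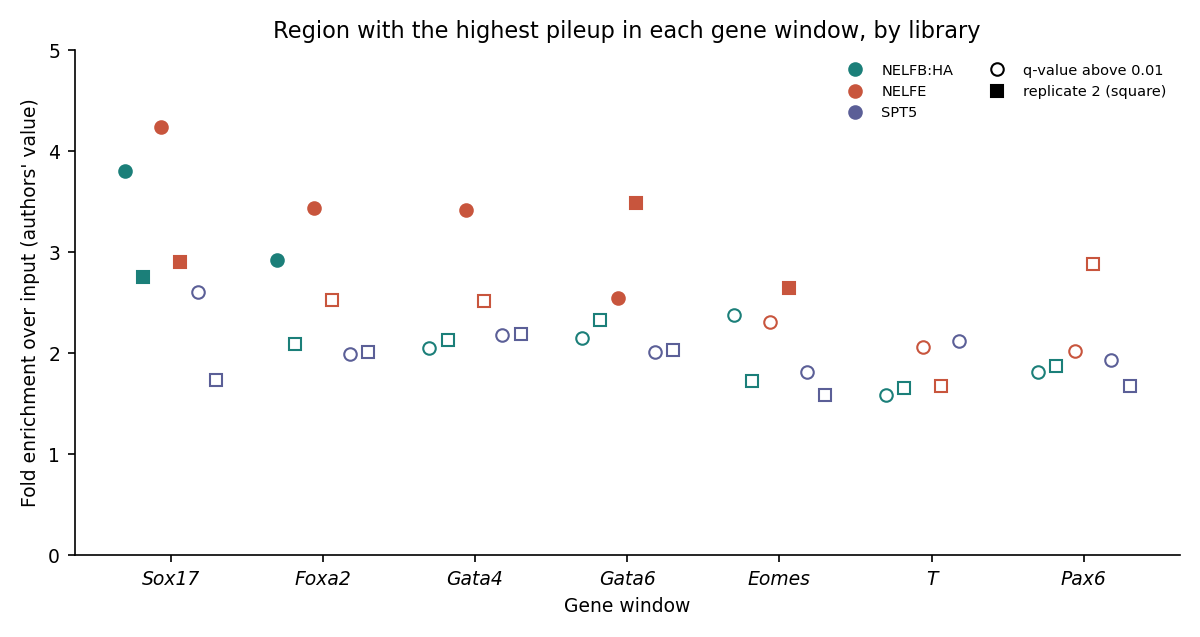
Fold enrichment over input (authors' value, linear axis from 0) of the region with the highest pileup in each gene window, 1 point per library; circles are replicate 1, squares replicate 2, and filled points have a q-value of 0.01 or less. Sox17 reaches 4.24 and T stays at 2.12 or less; at Gata4, and in the second NELFE library at Foxa2, the strong region of some libraries is not the one with the highest pileup and so is not drawn.

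Over the 7 genes, the regions of highest pileup had a median percentile within their own list of 96.1 and 96.9 (NELFB:HA), 94.6 and 95.1 (NELFE) and 96.8 and 87.6 (SPT5, over 6 windows in the second library). These percentiles are taken over full lists made up mainly of weak regions, and each is the best of a whole window. Sox17 had the best rank of the 7 in the NELFB:HA and NELFE lists, Gata4 in the first SPT5 list and Gata6 in the second. T had the worst rank in both NELFB:HA and both NELFE lists, and Foxa2 in both SPT5 lists among the windows with a region. The gene with the best rank thus differed between the NELF and the SPT5 lists. At the low end the gene differed in the first SPT5 list, while in the second T had no region to rank.

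Strong regions covered 9.76 and 5.93 kb of the 7 windows in the NELFB:HA libraries (7.85 kb ± 2.71, SD, n = 2), 9.62 and 11.9 kb in the NELFE libraries (10.8 kb ± 1.60, SD, n = 2) and 0 in both SPT5 libraries. The covering regions had a mean fold of 2.82 and 2.75 (NELFB:HA) and of 3.29 and 2.99 (NELFE). The values of NELFB:HA and NELFE overlapped, and the 2 SPT5 libraries lay below all 4. NELFE exceeded SPT5 by 10.8 kb, more than the pooled SD of 1.13 kb, with a two-sided exact permutation p of 0.333 (adjusted p of 0.5 over 3 comparisons). NELFB:HA exceeded SPT5 by 7.85 kb, more than the pooled SD of 1.92 kb (same test, exact p of 0.333 and 0.5 after adjustment). Both SPT5 values were 0, so these pooled SDs hold the spread of the NELF libraries alone. They are smaller than the SDs of 1.60 kb (NELFE) and 2.71 kb (NELFB:HA) given above. With 2 libraries against 2 the smallest p is 0.3333, so neither difference from SPT5 could pass 0.05. With the full lists, weak regions included, the NELFE minus SPT5 difference turned to −7.47 kb, and with the 10000 highest-scoring regions of each list it was 4.51 kb. NELFB:HA minus NELFE was −2.91 kb, more than the pooled SD of 2.22 kb (two-sided exact permutation test, p of 0.667 before and after adjustment).

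The NELFB:HA minus NELFE difference rested on the second library of each pair. Without replicate 2 it was 0.141 kb, and without replicate 1 it was −5.95 kb. By gene, the libraries of a pair of antibodies did not overlap in 6 of 21 comparisons. The share of all gene windows with such a difference is not given here, so this count is a description. NELFE lay above SPT5 at Sox17, Foxa2, Gata4 and Gata6, NELFB:HA above SPT5 at Sox17, and NELFE above NELFB:HA at Gata6. The cases against SPT5, which covered 0 in every window, restate where a NELF subunit had a strong region in both libraries. All 21 adjusted exact permutation p-values were 1.

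**Figure D3:**
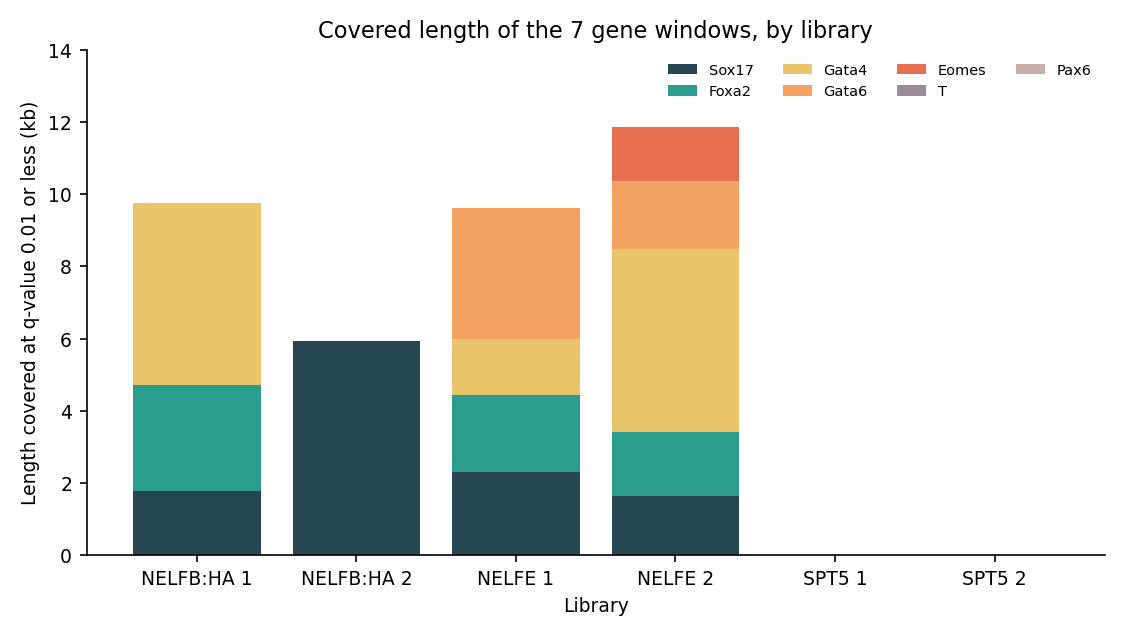
Length of the 7 gene windows covered by strong regions (q-value 0.01 or less), in kb, 1 bar per library stacked by gene. The NELFB:HA libraries reach 9.76 and 5.93 kb, the NELFE libraries 9.62 and 11.9 kb, the SPT5 bars are 0, and T and Pax6 contribute nothing to any bar.

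Between libraries, 1 of the 3 strong regions of the first NELFB:HA library overlapped the 1 strong region of the second, at Sox17. For NELFE 3 of 4 regions (75%, 95% Wilson interval 30.1 to 95.4) overlapped a strong region of the second library, and 3 of 5 (60%, 23.1 to 88.2) the reverse. All 3 strong regions of the first NELFB:HA library overlapped one of the first NELFE library, at Sox17, Foxa2 and Gata4. The strong region of the second NELFB:HA library overlapped one in each NELFE library. The intervals cover counting error alone, and the regions are too few to set one pair of libraries against another.

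At annotated starts the genes could be set beside all 17492 protein-coding genes with a start entry. A strong region within 1 kb of a start occurred in both libraries for 36.6% of these genes with NELFB:HA, 42.9% with NELFE and 31.3% with SPT5. It did so for 0 of the 4 genes with an entry (Foxa2, Eomes, T and Pax6) with any antibody. Sox17, Gata4 and Gata6, which had overlapping strong regions in both NELFE libraries, have no entry and are missing from this count. The count therefore does not describe the whole set. By fold of the best region within 1 kb, Foxa2 stood at percentiles 63.0 and 56.3 of all genes (NELFB:HA), 64.1 and 53.3 (NELFE) and 54.8 and 59.1 (SPT5). Eomes stood at 56.2 and 39.5, at 52.5 and 54.6, and at 32.9 and 42.1 in the same order. Within 1 kb, Foxa2 therefore lay above the middle of all genes in 6 of 6 libraries and Eomes in 3 of 6. Genes without a region were placed lowest in these percentiles. Among genes with a region, the median fold was 2.94 and 2.32 (NELFB:HA), 3.72 and 3.89 (NELFE), and 2.17 and 2.48 (SPT5). Foxa2 and Eomes both lay below that median in 6 of 6 libraries. Within 500 bp, Foxa2 fell to percentile 41.8 in the first SPT5 library, where its 1 kb value came from a weak region 733 bp from a start. Foxa2 was also read over 3 start entries and Eomes over 1.

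T had a region within 1 kb in 4 libraries, with folds of 1.58 and 1.65 (NELFB:HA), 2.06 (first NELFE library) and 1.72 (first SPT5 library). Pax6 had one in 3 libraries, with folds of 1.73 (first NELFE library), 1.79 and 1.49 (SPT5). By comparison, between 60.1% and 78.1% of all genes had a region of any strength within 1 kb of a start, depending on the library. Starts of Sox17, Gata4 and Gata6 were not analysed here.

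A list of 35 other lineage regulators known as bivalent in embryonic stem cells, each taken with 4 kb on either side, was counted in the same way. A strong region in both libraries occurred at 1 of 35 with NELFB:HA (Lhx1), 4 of 35 with NELFE (Sox1, Lhx1, Isl1, Sox7) and 1 of 35 with SPT5 (Tbx6), or 2.86%, 11.4% and 2.86% beside the 40.6%, 47.5% and 35.1% of all gene windows. For NELFE this was a lower share than the 57.1% of the 7 genes, which were not tested against the list. The NELFE libraries thus had the most genes with strong regions in both lists of regulators, as they also did among all gene windows. With the 10000 highest-scoring regions of each list, NELFE and NELFB:HA each had 1 of the 7 genes, Sox17.

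Among the 26 regulators with a start entry, Sox1, a factor of early neural ectoderm, and Isl1, a LIM-homeodomain factor of motor neurons and heart, had the highest mean percentile of fold at their starts. At Sox1 the folds were 2.70 and 2.38 (NELFB:HA), 3.51 and 3.16 (NELFE), and 2.00 and 2.59 (SPT5), and at Isl1 they were 4.20 and 2.37, 3.39 and 3.07, and 1.84 and 2.10. Wnt1, a secreted signal of the midbrain, and Foxa1, a forkhead factor of endoderm, had the lowest. Wnt1 had a region in 1 library (SPT5 1, fold 1.61), and Foxa1 in 2 (NELFE 1, fold 1.53, and SPT5 1, fold 1.50). Over the list, the median of each gene's mean fold over the libraries of an antibody was 1.65 (NELFB:HA), 1.63 (NELFE) and 0.834 (SPT5). A library without a region at a gene entered that mean as 0. The value of 0.834 is therefore not the fold of any region and does not mean a signal below the input.

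The same count over 12 genes active in embryonic stem cells gave 12 with NELFB:HA, 12 with NELFE and 11 with SPT5, where Nanog was missing. Over 14 genes of differentiated tissues, such as Alb and Myh6, it gave 0 with each antibody. Of 6 embryonic stem cell markers, all of them also in the list of active genes, 6, 6 and 5 had a strong region in both libraries, which is the check of the labelled cell type that these data allow. Eef1a1, a translation factor, had start folds of 9.72 and 8.05, 10.3 and 12.3, and 6.86 and 6.89 in the order above. The highest fold at any of the 7 genes was 4.24, at a region of the Sox17 window and not read from a start entry. Klf4, a pluripotency factor with the highest mean percentile of the 6 markers, had 7.20 and 8.28, 5.74 and 7.20, and 4.41 and 4.14. Nanog and Esrrb had the lowest of the 6. Nanog had start folds of 2.08 and 1.75, 2.70 and 2.07, and 2.26 and 2.24. Esrrb had 1.87 and 1.48, 2.47 and 2.27, and 2.12 in the first SPT5 library alone. Within 1 kb of a start, 4 of the 6 markers had a strong region in both libraries of each antibody.

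**Figure D4:**
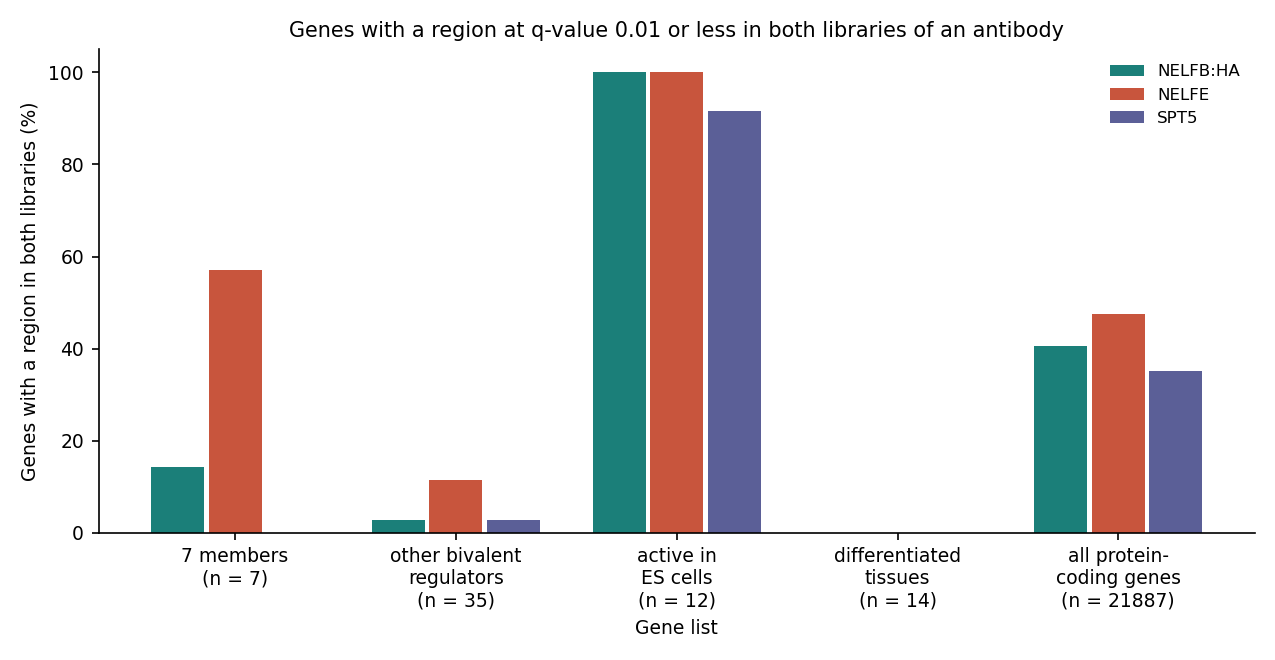
Percent of genes with a region at a q-value of 0.01 or less in both libraries of an antibody, for the 7 genes, 3 other lists and all protein-coding genes, each with its flanks; bars start at 0. The 7 genes stand at 14.3%, 57.1% and 0, the 35 other bivalent regulators at 2.86%, 11.4% and 2.86%, the 12 active genes at 100%, 100% and 91.7%, and the 14 genes of differentiated tissues at 0.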

How the data were processed

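Regions came from the 6 deposited broad peak lists, which the authors called library by library against an input (MACS 2.1.1.20160309), per the file headers. The submitters' processing notes also name Bowtie2, deepTools and mm10, with no roles. The p-value cutoffs were 0.01 for strong and 0.1 for linking regions, per the file headers. The deposited pileup is a coverage signal scaled to the smaller of ChIP and input, the deposited fold is the ratio to the local background, and −log10 of the p-value and of the q-value were averaged over a region by the authors. The headers state that no q was computed, yet that column is filled with numbers from 0 upward, which were used as q-values. Where those values are not q-values, the threshold below is a cut on that column alone.

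Regions overlapping a window by 1 bp were taken, with rank 1 the highest pileup of a list. Covered length at a q-value of 0.01 or less, clipped to the window, was compared between antibodies with two-sided exact permutation tests over libraries and Benjamini-Hochberg adjustment over 3 pairs, or 21 gene by pair comparisons. Length depends on where the authors' linking cutoff ends a region. Gene spans and starts came from RefSeq on GRCm38.p6. A gene start counted as marked where a region lay within 1 kb of any entry. Python 3.11.15, numpy 2.4.6, pandas 2.3.3 and scipy 1.17.1 were used, and the scripts were tested on simulated data. All 7 members are named. Of the list of other bivalent regulators, the strongest and weakest 2 by mean percentile are named, beside genes counted in 5 or fewer. Eef1a1, Klf4, Alb, Myh6, Nanog and Esrrb were named after their values were seen. The members and lists were chosen with earlier results of these data known.

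Alternatives were the full lists, a q-value of 1e-05 or less, the midpoint of a region in the window, whole region lengths, a shared stretch of at least 50% of the shorter region, ranks by fold and by −log10 p, 500 bp around starts, leaving out each replicate, and a replicate block. Whether same-numbered libraries belong together was checked from their deviations at gene starts.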

Additional observations from a re-analysis of the deposited data

How the results depend on the processing

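Over 23 results and 63 alternatives, 46 kept their direction or stayed within the limit or error set for a count or value, 13 moved further and 4 reversed. Size could still change among the 46: with the 1e-05 threshold on q, covered length exceeded that of SPT5 by 0.882 kb (NELFB:HA) and 1.91 kb (NELFE). Both values rest on the first library of each subunit alone, as the second had no region in the windows at that threshold. The overlap of the NELFB:HA replicates was 56.8% with the full lists, inside the wide interval (20.7 to 100%) of the 1 region of 1 that overlapped among strong regions. The number of genes with a region in both libraries was 7 (NELFB:HA), 7 (NELFE) and 6 (SPT5) with the full lists, and 0 (NELFB:HA) and 0 (NELFE) at a q-value of 1e-05 or less. Left with 1 library, the NELFB:HA count ran from 1 to 3. Taking the 10000 highest-scoring regions of each list, an alternative chosen after seeing the data, gave 1 gene for NELFE, Sox17. The share of all gene windows under these settings is not given here, so these counts cannot be set against a background. In the full lists, between 60.1% and 78.1% of all genes already had a region within 1 kb of a start, depending on the library.

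The difference in covered length between NELFB:HA and NELFE was −5.95 to 0.141 kb with 1 replicate number left out, 19.8 kb with the full lists and 3.11 kb with the 10000 highest-scoring regions, so its sign depended on these choices. The difference between NELFE and SPT5 was −7.47 kb with the full lists. The first SPT5 list, from the shallowest library, covered 84.1 kb of the windows and the second, from the deepest, 23.2 kb, beside 41.9 to 77.2 kb in the other 4 lists. The cause of these changes was not tested.

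With the replicate block the differences were −2.91, 7.85 and 10.8 kb, unchanged by construction, with paired exact p-values of 1, 0.5 and 0.5, where 0.5 is the smallest that 2 pairs allow. The deviations of same-numbered libraries correlated at −0.00793, −0.0277 and −0.00869 over 9045 gene starts, so the numbers were not taken to pair the libraries. Of the gene-start percentiles, 5 of 12 moved by more than the spread between replicates at 500 bp. The 6 results of the alternative rankings did not. No replicate overlap could be given at a q-value of 1e-05 or less, nor for SPT5 strong regions.

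Presence rests on a threshold near which several of these regions lie: −log10 q was 2.01 at Eomes (second NELFE library) just inside it, and 1.96 and 1.86 in the Foxa2 window just outside.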
